A study of Mus musculus with 15 samples.

Results

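Marrow mesenchymal stromal cells (MSC) were compared with passaged Emcn- cells of bone marrow endothelial cultures inside a single batch of bulk RNA-seq libraries. The compared libraries were 2 of MSC (MSC 1 and MSC 2) and 1 each of Emcn- cells at passage P1, P2 and P3, all of batch c by the sample labels and 5 of the 15 libraries of the series. The 3 passages were taken as 1 group. The genes described are those with at least 5 CPM (the count relative to the total counts of its library) in every library of a side, 11263 of the 44674 genes in the table. Of these, 9998 met the minimum on both sides, 684 in MSC alone and 581 in passaged cells alone.

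By the methods of the study, MSC were CD45- tdTomato+ cells sorted from whole marrow cultures of Osx-Cre;Rosa26-tdTomato mice, grown to confluence in Mesencult medium without passage. Osx-Cre marks cells of the osteoblast lineage. The passaged cells came from Tie2-CreERT2;Rosa26-tdTomato mice, in which tamoxifen induces the label in Tie2-expressing cells, and were CD45- tdTomato+ cells without surface Emcn (endomucin), grown in EGM-2. This endothelial medium holds hydrocortisone, VEGF, FGF, EGF, IGF-1, ascorbic acid and heparin. The labels call every library wild type and give the cell types as MSC and BMEC (bone marrow endothelial cell), and the mice were adults of either sex. Mouse line, Cre driver, medium and passaging all differed between the sides together with the cell type, so their parts in any difference cannot be told apart. The labels do not say whether P1, P2 and P3 came from separate cultures, or which animals gave MSC 1 and MSC 2, so the p-values measure the spread between these libraries only. In bulk samples, fewer cells of a type and less RNA per cell cannot be told apart.

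MSC of the marrow are stromal progenitors that give rise to bone, cartilage and fat cells and secrete matrix and cytokines that hold hematopoietic cells in place. Endothelial cells line the vessels and are defined by adhesion and receptor proteins such as VE-cadherin (Cdh5), CD31 (Pecam1) and the Tie receptors. Emcn- cells were studied as the arterial-like part of the marrow endothelium, and the comparison with MSC asks what separates their passaged form from stromal cells.

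The labelled cell types were first checked against their defining genes. Cdh5 was at 2.33, 0.497 and 0.185 CPM at P1, P2 and P3, against 6222 and 5118 CPM in the Emcn+ endothelial libraries of the series. The endothelial receptor gene Tie1 was at 0.323, 0.298 and 0.222 CPM and the guidance receptor gene Robo4 at 0.395, 0.0663 and 0.074 CPM in the same passaged libraries. Tie1 and Robo4 were thus at or near 0 in the passaged libraries labelled BMEC, and Cdh5 was low and highest at P1. Over the 25 genes of the endothelial list the same libraries summed to 179, 177 and 199 CPM. Most of that sum lay in genes other than these. Pecam1 was at 14.3, 11.9 and 10.7 CPM there, against 2474 and 2264 CPM in the Emcn+ libraries. Low endothelial transcripts were not particular to the passaged cells. The 25 genes of the endothelial list summed to 202 and 624 CPM in P0 Emcn- cells (libraries 2 and 1), which were not passaged. In the Emcn+ libraries the sums were 18853 and 21502 CPM. Tek (the Tie2 receptor whose gene drives the Cre) was present, at 30.1, 20 and 15 CPM, and was higher than in MSC, at 5.47 and 5.51 CPM (log2 fold change -2.05, SE 0.31, adjusted p = 0.00609). In MSC, Runx2, the master factor of the osteoblast lineage, was at 77.9 and 56.8 CPM against 20.2, 21 and 19.2 CPM in passaged cells, and Sp7 (Osterix itself) at 2.5 and 5.6 CPM against 0, 0.0663 and 0.074 CPM.

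The MSC libraries differed from each other in endothelial transcripts. Cdh5 was at 7.86 and 156 CPM in MSC 1 and MSC 2, Pecam1 at 15 and 101 CPM, Apln (a ligand made by sprouting endothelium) at 14.2 and 192 CPM and Angpt2 (a vessel-remodelling ligand) at 6.76 and 114 CPM. MSC 2 was thus the higher of the pair for each of these genes, and its level lay above all 3 passaged libraries. Summed over the 25 genes of the endothelial list, MSC 1 had 219 CPM, MSC 2 had 914 CPM and the passaged libraries 179, 177 and 199 CPM. Of the mural genes, the pericyte gene Rgs5 at 1.32 and 38.1 CPM and the smooth muscle myosin gene Myh11 at 2.22 and 41.1 CPM were also higher in MSC 2, against 0.682, 0.663 and 0.481 CPM and 1.43, 1.09 and 1.26 CPM at P1, P2 and P3. The 24 genes of the contractile and mural list together summed to 4389 CPM in MSC 1 and 5041 CPM in MSC 2. Of 23 endothelial genes tested, 10 were called higher in MSC and 2 in passaged cells, and without MSC 2 these counts were 3 and 4. The count higher in MSC was also 19 without MSC 1, 3 without MSC 2, 5 without P1, 1 without P2 and 2 without P3. The part of these transcripts in the results below was not tested, and values without MSC 2 are given for some of the results that rest on it.

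Macrophage transcripts marked P1. The 18 genes of the macrophage list summed to 328 CPM at P1, 56.6 CPM at P2 and 18.7 CPM at P3, and to 26.7 and 42.1 CPM in MSC. Lyz2 was at 181, 28.8 and 6.85 CPM over the passages and Ptprc (the pan-leukocyte CD45 removed in the sort) at 2.58, 0.53 and 0.185 CPM. By edgeR 1 of the list (C1qa, 2 counts in MSC and 349 in passaged cells, a 140-fold ratio of CPM with a 95% counting interval of 38.6 to 1165) was called higher in passaged cells and none in MSC, with 0 without MSC 1, 0 without MSC 2, 4 without P1, 0 without P2 and 7 without P3, and 10 by DESeq2. Of the sex-linked genes, Xist was at 1035 and 826 CPM in MSC and 876, 727 and 688 CPM in passaged cells. The Y-linked Ddx3y and Eif2s3y had at most 0.037 and 0.0913 CPM in any of the 5 libraries. Uty stood at 17.9 and 42.6 CPM in MSC and 2.01, 1.99 and 1.18 CPM in passaged cells (log2 fold change 4.04, SE 0.43, adjusted p = 0.00244). Its counts did not follow those of Ddx3y and Eif2s3y, so they are not read as a sign of male cells. Their source was not tested.

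**Figure D1:**
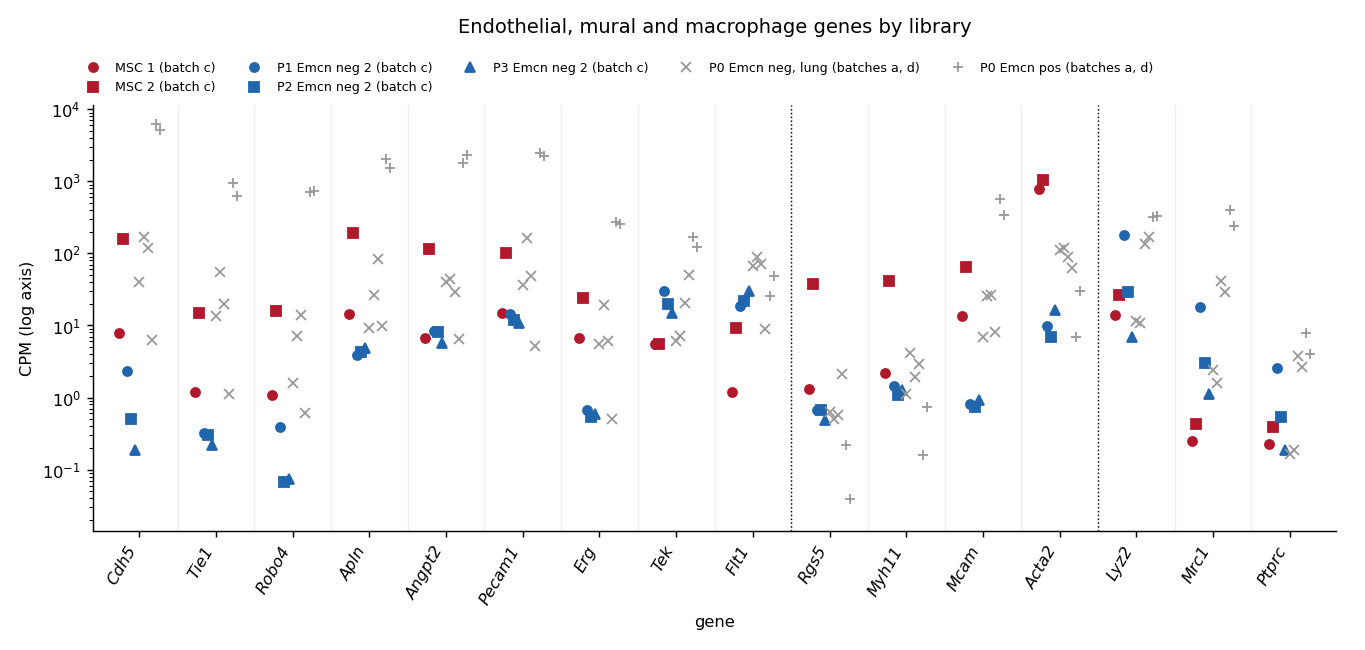
CPM per library (log axis) of 9 endothelial, 4 mural and 3 macrophage or leukocyte genes, with MSC 1 and MSC 2 in red, P1 to P3 of batch c in blue, and the P0 and lung libraries of the series in grey, the Emcn+ libraries as plus signs. MSC 2 lies above MSC 1 for Cdh5, Tie1, Robo4, Apln, Angpt2, Pecam1, Rgs5 and Myh11, and the P1 library is the highest passaged one for Lyz2, Mrc1 and Ptprc.

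The 5 libraries held 27017659 to 35628327 counts, and a gene without a count could still be present at up to 0.0842 to 0.111 CPM, the worth of 3 counts, by counting error alone. Genes were tested with edgeR on the counts of these 5 libraries and called at an adjusted p under 0.05 with an absolute log2 fold change above 1.5. A positive log2 fold change means higher in MSC. Of 16581 genes tested, 2435 were called (14.7%), of which 1276 (7.7%) were higher in MSC and 1159 (6.99%) higher in passaged cells. The counts of called genes in each list below are to be read against these shares, 7.7% for MSC and 6.99% for passaged cells. Whether a list exceeds them was not tested. The median log2 fold change over all tested genes was -0.01.

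All 11263 described genes passed the filter on low counts, and 1133 of them were called, 549 higher in MSC and 584 higher in passaged cells. Among the 9998 genes with the minimum on both sides, 243 were called higher in MSC and 293 in passaged cells, and 86.8% had a log2 fold change within 1 of 0. The minimum itself favours the side on which a gene met it, so the 306 of 684 and 291 of 581 such genes called carry no further weight. At the edge of the minimum, P2rx5, Sap30 and Rpl17 were just inside, at 5.005 CPM in their deciding library, and Gfod1 and Nme3 just outside, at 4.997 CPM. Without MSC 2, 2223 of 17134 genes (13.0%) were called, 1056 (6.16%) higher in MSC and 1167 (6.81%) higher in passaged cells. The described genes called were then 548 and 656.

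Replicate spread was read within each side. Over the 10579 genes with the minimum at all 3 passages, the highest passage stood a median of 1.18-fold above the lowest, and 300 genes (2.84%) spanned more than 2-fold. Between MSC 1 and MSC 2 the median fold over 10682 genes was 1.107, with 404 genes (3.78%) above 2-fold. Of the 54 genes more than 4-fold apart in MSC, 36 were higher in MSC 2.

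**Figure D2:**
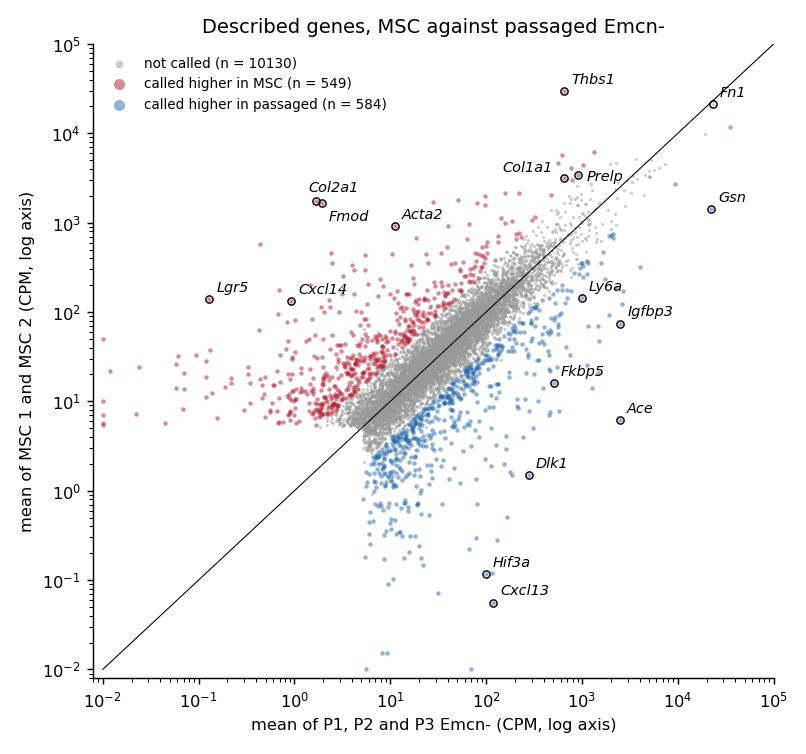
Mean CPM of the passaged libraries (x axis) and of the MSC libraries (y axis), both log axes, for the 11263 described genes; a mean of 0 is drawn at 0.01 CPM and the line marks equality. The 549 genes called higher in MSC (red) and 584 called higher in passaged cells (blue) lie off the line, and Fn1 lies near it.

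The marker genes given for this contrast were Acta2, Ace, Col1a1 and Prelp. Acta2, smooth muscle actin (ENSMUSG00000035783, GRCm38 chromosome 19, 34241090 to 34255590), had 789 and 1035 CPM in MSC and 9.97, 6.83 and 16.5 CPM at P1, P2 and P3. Ace, the angiotensin-converting enzyme (ENSMUSG00000020681, chromosome 11, 105967945 to 105989964), had 2.02 and 10.4 CPM in MSC and 2717, 2402 and 2339 CPM in passaged cells. These levels did not overlap and lay 6.29 and -8.73 apart on the log2 scale (SE 0.41 and 0.88, adjusted p = 0.000889 and 0.00216). Col1a1, the main collagen chain of bone (ENSMUSG00000001506, chromosome 11, 94936224 to 94953042), had 4752 and 1599 CPM against 647, 544 and 739 CPM (log2 fold change 2.25, SE 0.47, adjusted p = 0.0155). Prelp, a small leucine-rich proteoglycan (ENSMUSG00000041577, chromosome 1, 133910304 to 133921414), had 3955 and 2822 CPM against 359, 957 and 1394 CPM (log2 fold change 1.83, SE 0.57, adjusted p = 0.0486). MSC was higher in every library for both, while Prelp differed 3.89-fold between P1 and P3. The call of Prelp was near the limit. It was lost without MSC 1 (log2 fold change 1.53), MSC 2 (log2 fold change 2.08), P1 (log2 fold change 1.44, adjusted p = 0.0286) or P2 (log2 fold change 1.89, adjusted p = 0.134). That of Col1a1 was lost without MSC 1 (log2 fold change 1.21) or P2 (log2 fold change 2.15, adjusted p = 0.0705). In the passaged libraries of the other batch, P1 to P3 gave Prelp 361, 1063 and 1373 CPM, Acta2 12.2, 9.45 and 20.3 CPM, Ace 3289, 2779 and 2677 CPM and Col1a1 469, 439 and 571 CPM, each on the same side of MSC.

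A short list of MSC genes, Prelp among them, gave unequal differences, with 4 of 5 called higher in MSC (2 without MSC 1). The list was drawn up with results of these libraries known, so its direction is not independent evidence. The atypical cadherin Fat1 (log2 fold change 2.34) and the mineralizing phosphatase Alpl (log2 fold change 6.47) were called higher in MSC, with Alpl at 106 and 48.9 CPM against 1.11, 0.795 and 0.592 CPM. Foxc1, a factor of the marrow niche, had 140.3 and 115 CPM against 38.5, 41.7 and 40.4 CPM (log2 fold change 1.60, SE 0.12, adjusted p = 0.00126). Cdh11, the mesenchymal cadherin, had 756 and 803 CPM against 423, 359.6 and 333 CPM and did not pass the fold limit (log2 fold change 1.00, SE 0.13, adjusted p = 0.00449). Of other lists, the stromal Pdgfrb (log2 fold change 0.50, adjusted p = 0.174) and the fibroblast gene Serpinf1 (log2 fold change 0.05, adjusted p = 0.787) were not called either. Cells of both sides thus carried Cdh11 and Pdgfrb transcripts. Leave-one-out fits ended the call of Foxc1 without MSC 1 (log2 fold change 1.42, adjusted p = 0.00254), and of Runx2 without MSC 1 (log2 fold change 1.4, adjusted p = 0.00291).

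The contractile and mural list was nearly one-sided. Of 23 genes tested, 13 were higher in MSC and none in passaged cells by edgeR (1 by DESeq2), with 10 to 14 with 1 library left out. The list median was 2.29, and without MSC 2 it was 1.84 with 11 genes called. Cnn1 (calponin) had 30.9 and 22 CPM in MSC and 0.0717, 0.0663 and 0.037 CPM in the passaged libraries (log2 fold change 8.66, SE 0.31, adjusted p = 0.000381). Actg2 (enteric smooth muscle actin) had 16.7 and 47.3 CPM against 0.0359, 0 and 0.148 CPM (log2 fold change 8.91, SE 0.80, adjusted p = 0.00164). Tagln (transgelin) had 239.5 and 348 CPM against 4.66, 4.77 and 7.03 CPM, and Myl9 (a myosin light chain) 147 and 173 CPM against 5.45, 4.31 and 2.78 CPM. Neither gene overlapped between the sides, with log2 fold changes of 5.67 and 5.19 (adjusted p = 0.000472 and 0.00056). Both were picked among the called genes, so the lack of overlap adds no weight. Tropomyosin Tpm1 (log2 fold change 2.51) and caldesmon Cald1 (log2 fold change 2.04) were higher at higher levels, 636 and 572 CPM and 1957 and 2132 CPM in MSC. Rgs5 and Myh11 were called in the full comparison (log2 fold change 4.91 and 4.01), but without MSC 2 they stood at log2 fold changes of 1.07 (adjusted p = 0.114) and 0.77 (adjusted p = 0.139).

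Promoters of the contractile list were read from RefSeq (GRCm38.p6, 250 bases before to 50 after each annotated start), because serum response factor binds the CArG box in many muscle promoters. The box was found on either strand in 2 of 19 list genes with a sequence, Myl9 and Ldb3, both called higher in MSC, and in 1.81% of 27025 genes. The stretches below hold it in capitals.
Myl9, chr2:156775273-156775342, + strand: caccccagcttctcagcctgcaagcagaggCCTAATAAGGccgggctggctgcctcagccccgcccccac
Ldb3, chr14:34588677-34588746, - strand: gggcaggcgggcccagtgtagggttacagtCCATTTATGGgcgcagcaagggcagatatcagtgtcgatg
A match describes letters in this window and says nothing of binding in these cells.

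**Figure D3:**
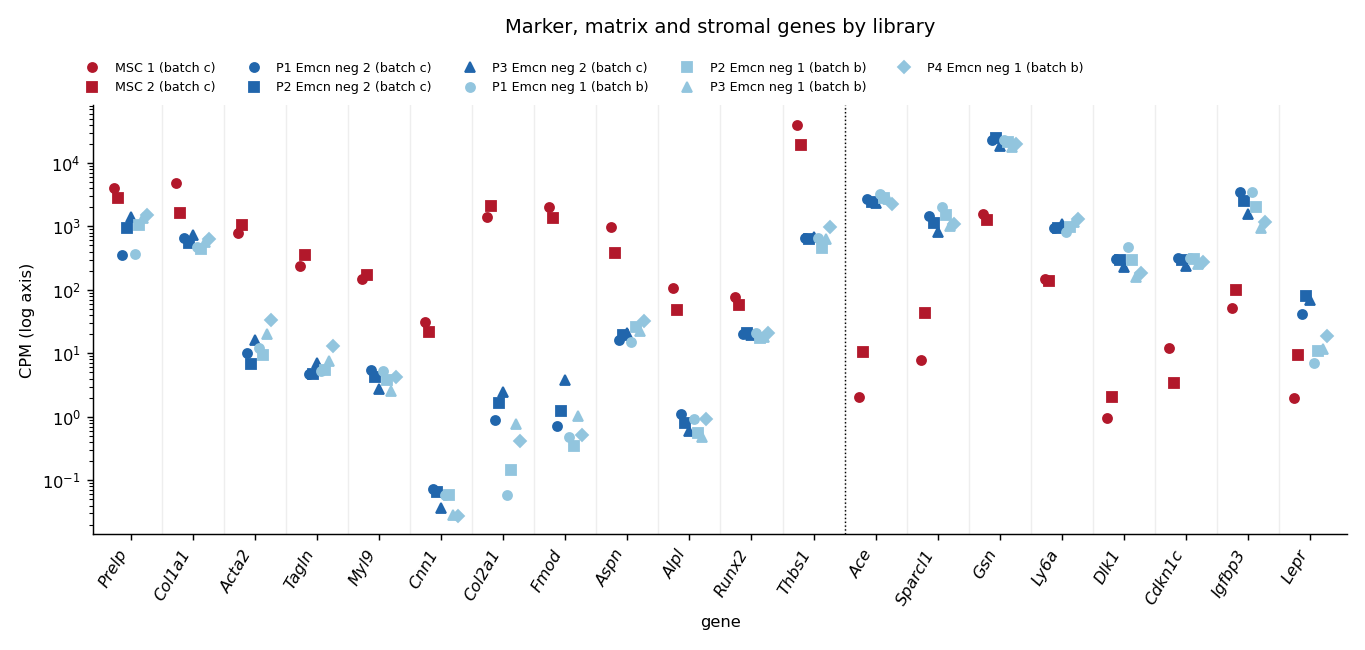
CPM per library (log axis) of 20 named genes in MSC (red), the passaged libraries of batch c (dark blue) and those of batch b (light blue), with genes higher in MSC left of the dotted line and genes higher in passaged cells right of it. For Acta2, Cnn1, Col2a1, Fmod, Ace and Dlk1 the MSC and passaged libraries lie more than 10-fold apart.

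Matrix genes were among the most abundant ones higher in MSC. Thbs1 (thrombospondin 1, a matrix glycoprotein) had the highest mean of any gene in MSC, with 39654 and 19304 CPM, against 659, 637 and 669 CPM in passaged cells (log2 fold change 5.43, SE 0.44, adjusted p = 0.00133). Lox, the collagen-crosslinking enzyme, had 6753 and 5646 CPM against 1346, 1379 and 1282 CPM (log2 fold change 2.15, SE 0.20, adjusted p = 0.0018). Fn1 (fibronectin), second by the mean of each side, had 21376 and 21468 CPM in MSC, where it was above Thbs1 in MSC 2, and 17103, 24450.2 and 27882 CPM in passaged cells, and was not called (log2 fold change -0.18, SE 0.38, adjusted p = 0.724). Of 28 collagen genes tested, 8 were higher in MSC and 4 in passaged cells (median 0.62). Over all tested genes the shares were 7.7% and 6.99%. The count higher in MSC was 5 without P2, and the count higher in passaged cells 1 without MSC 1, 1 without P2 and 2 without P3. Among fibrillar chains, Col3a1 had 5471 and 3824 CPM against 755, 487 and 455 CPM (log2 fold change 2.98) and Col5a2 2765 and 1505 CPM against 252, 190.3 and 220 CPM (log2 fold change 3.22). Col14a1, which binds fibril surfaces, had 72.2 and 325 CPM against 3.12, 0.961 and 0.259 CPM (log2 fold change 7.02, SE 1.01, adjusted p = 0.00531), and Col8a2 had 376 and 132 CPM against 1.36, 3.35 and 4.92 CPM (log2 fold change 6.24, SE 0.69, adjusted p = 0.0028). The basement membrane chains went the other way, with Col4a1 at 452 and 957 CPM against 1829, 1842 and 2011 CPM (log2 fold change -1.51, SE 0.33, adjusted p = 0.0182) and Col18a1 at 36.1 and 116 CPM against 355, 278 and 253 CPM (log2 fold change -2.04, SE 0.50, adjusted p = 0.0245). Col7a1, the anchoring fibril collagen, had 0.954 and 1.37 CPM against 7.07, 9.38 and 15.8 CPM (log2 fold change -3.28, SE 0.45, adjusted p = 0.00462). Not called any more were Col4a1 without MSC 1 (log2 fold change -1.09, adjusted p = 0.021), P2 (log2 fold change -1.52, adjusted p = 0.0645) and P3 (log2 fold change -1.46, adjusted p = 0.0484), and Col18a1 without MSC 1 (log2 fold change -1.44, adjusted p = 0.0128), P1 (log2 fold change -1.91, adjusted p = 0.0604), P2 (log2 fold change -2.07, adjusted p = 0.0704) and P3 (log2 fold change -2.14, adjusted p = 0.0506).

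Small leucine-rich proteoglycans, which coat and space collagen fibrils, were higher in MSC in 10 of 15 genes tested and in none in passaged cells (median 3.09; 8 to 10 with 1 library left out). Fmod (fibromodulin) had 2015 and 1339.8 CPM in MSC and 0.717, 1.23 and 3.81 CPM at P1, P2 and P3 (log2 fold change 9.71, SE 0.78, adjusted p = 0.00132). Aspn (asporin) had 964 and 380.2 CPM against 16.1, 19.5 and 20.7 CPM (log2 fold change 5.10, SE 0.44, adjusted p = 0.00154), and Omd (osteomodulin) 226 and 169 CPM against 10.8, 8.75 and 5.55 CPM (log2 fold change 4.50, SE 0.30, adjusted p = 0.000923). No MSC library of these genes overlapped a passaged one, but they were picked among the called genes, so this adds no weight. Epyc had 1526 counts in MSC and 1 in passaged cells, a 1896-fold ratio of CPM with an exact 95% counting interval of 340 to 74921, and Kera had 710 counts in MSC and 0 in passaged cells, at least 294-fold with 3 counts over the passaged group as the limit. The call of Kera was lost without P1, P2 or P3 (adjusted p = 0.0519, 0.0607 and 0.0519). Bgn (biglycan), at 4029 and 6399 CPM against 3252, 3799 and 3829 CPM, and Dcn (decorin), at 2195 and 1033 CPM against 1629, 1063 and 575 CPM, were not called (adjusted p = 0.229 and 0.457). Those high-count members were on both sides, and Dcn was lower at each later passage.

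Elastic fibre genes split. Of 22 tested, 4 were higher in MSC and 3 in passaged cells (median 0.26; 3 to 5 with 1 library left out in MSC and 2 to 3 with 1 library left out in passaged cells). Fbln5 (fibulin 5, which assembles elastin) had 524 and 379 CPM in MSC and 105, 84.8 and 58.7 CPM in passaged cells (log2 fold change 2.38, SE 0.28, adjusted p = 0.00305). Efemp1 (fibulin 3) went the other way, at 179 and 169 CPM against 1920, 2787 and 3373 CPM (log2 fold change -4.03, SE 0.34, adjusted p = 0.00141). Emilin2 had 19.5 and 67.8 CPM against 252, 217 and 238 CPM (log2 fold change -2.52, SE 0.52, adjusted p = 0.0149). Members of the fibulin family thus lay on opposite sides. Elastin itself, Eln, had 3.34 and 47.2 CPM against 8.68, 7.09 and 7.11 CPM and overlapped between the sides (log2 fold change 1.64, SE 0.92, adjusted p = 0.205), and without MSC 2 its log2 fold change was -1.23. The microfibril gene Fbn1 was not called, at 898 and 1681 CPM in MSC and 960.4, 994 and 1057 CPM in passaged cells. The list counts of 4 and 3 of 22 stand against 7.7% and 6.99% of all tested genes.

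Proteases and their inhibitors had 4 of 25 tested genes higher in MSC and 4 higher in passaged cells (median -0.34; 3 to 6 with 1 library left out and 4 to 5 with 1 library left out). Mmp13, the collagenase of bone and cartilage, had 301 and 613 CPM against 5.99, 0.53 and 0.777 CPM (log2 fold change 7.49, SE 1.04, adjusted p = 0.0048). Plau, the urokinase that activates plasminogen, went the other way with 31.9 and 50.2 CPM against 119, 154 and 172 CPM (log2 fold change -1.93, SE 0.26, adjusted p = 0.00445). Timp4 had 0.112 and 0.244 CPM against 14.7, 12.9 and 14.7 CPM (log2 fold change -6.36, SE 0.30, adjusted p = 0.000472), and Adamts15 4.58 and 12.8 CPM against 185, 111 and 60.6 CPM (log2 fold change -3.85, SE 0.67, adjusted p = 0.00916). Mmp2, Mmp14 and Timp2, abundant on both sides, were not called. For comparison with the 4 of 25 on each side, 7.7% of all tested genes were higher in MSC and 6.99% in passaged cells.

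Cartilage genes were higher in MSC in 9 of 15 tested genes and in none in passaged cells (median 2.77; 6 to 10 with 1 library left out). Col2a1, the cartilage collagen, had 1418 and 2095 CPM in MSC and 0.897, 1.62 and 2.48 CPM in passaged cells (log2 fold change 9.96, SE 0.48, adjusted p = 0.000512). Hapln1 (link protein) had 86.4 and 37.9 CPM against 0.251, 0.298 and 0.74 CPM (log2 fold change 7.12, SE 0.57, adjusted p = 0.00132), and Comp 1190.3 and 727 CPM against 49.2, 67.2 and 82.2 CPM (log2 fold change 3.79, SE 0.33, adjusted p = 0.00151). Of the Sox trio that drives cartilage, Sox6 was called (47.9 and 19.4 CPM against 4.3, 5.07 and 4.85 CPM; log2 fold change 2.77, SE 0.40, adjusted p = 0.00533), whereas Sox9 (log2 fold change 0.84, adjusted p = 0.0651) and Sox5 (log2 fold change -0.39, adjusted p = 0.042) were not. Prg4 (lubricin) stood higher in passaged cells, 570, 1015 and 1160.5 CPM against 265 and 422 CPM, short of the fold limit (log2 fold change -1.49, SE 0.38, adjusted p = 0.0281).

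Of 23 osteolineage genes tested, 12 were higher in MSC and 2 in passaged cells (median 1.80; 8 to 12 with 1 library left out). Ibsp (bone sialoprotein) had 22.7 and 14 CPM against 0.143, 0.331 and 0.185 CPM (log2 fold change 6.28, SE 0.40, adjusted p = 0.000866), and Enpp1, a regulator of mineral through pyrophosphate, 133 and 341 CPM against 7.78, 6.23 and 9.4 CPM (log2 fold change 4.85, SE 0.43, adjusted p = 0.00159). Sp7 was below the 5 CPM minimum in MSC 1, yet called (log2 fold change 6.23, SE 0.75, adjusted p = 0.00332). Against this direction, Smpd3, a sphingomyelinase needed for skeletal mineralization, had 154, 204 and 202 CPM in passaged cells and 0.814 and 2.19 CPM in MSC (log2 fold change -7.05, SE 0.46, adjusted p = 0.000868). The count higher in passaged cells, of Smpd3 and Bmp8a, was 1 without MSC 1, 1 without P2 and 1 without P3. Spp1 (osteopontin) was on both sides, at 2276 and 3478 CPM in MSC and 1757, 2955 and 5387 CPM in passaged cells (log2 fold change -0.31, SE 0.51, adjusted p = 0.656).

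Fat-cell genes leaned to the passaged side. Of 17 tested, none was called higher in MSC by edgeR or DESeq2, and 4 were higher in passaged cells (median -1.02; 2 without MSC 1). Plin4 and Plin2, which coat lipid droplets, had 469.9, 473 and 479 CPM (Plin4) and 230, 168 and 172 CPM (Plin2) in passaged cells against 69.3 and 48.9 CPM and 56 and 66 CPM in MSC (log2 fold change -3.07 and -1.71, adjusted p = 0.000921 and 0.00199). Pparg, the master regulator of fat cells, had 51.8, 36.6 and 46.4 CPM against 12.7 and 19 CPM (log2 fold change -1.58, SE 0.22, adjusted p = 0.0047). Cfd (adipsin) was lower at each later passage, at 70.4, 26 and 13.3 CPM, and at 5.39 and 3.9 CPM in MSC (log2 fold change -3.03, SE 0.77, adjusted p = 0.0277). Adipoq (log2 fold change -0.19) and Cebpa (log2 fold change -0.32) were not called. With 1 library left out, calls were lost for Pparg without MSC 1 (log2 fold change -1.34, adjusted p = 0.0128) and P1 (log2 fold change -1.48, adjusted p = 0.0148), and Cfd without MSC 1 (log2 fold change -3.31, adjusted p = 0.0823), MSC 2 (log2 fold change -2.79, adjusted p = 0.114) and P2 (log2 fold change -3.22, adjusted p = 0.0623).

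The stromal niche list crossed the sides. Of 22 genes tested, 8 were higher in MSC, against 7.7% of all tested genes, and 2 in passaged cells, against 6.99%. The list median was 0.55, and 0.50 without MSC 2. The first count was 4 without P1, 4 without P2 and 5 without P3, and the second 1 without MSC 1, 1 without P1 and 1 without P2. Lepr (leptin receptor, a marker of niche stroma in adult marrow) had 41.1, 79.3 and 70 CPM in passaged cells and 1.96 and 9.28 CPM in MSC (log2 fold change -3.59, SE 0.71, adjusted p = 0.0129), while the passaged libraries of the other batch had 7.02, 11 and 11.6 CPM. Pdgfra had 1319, 978 and 719 CPM against 209 and 491 CPM (log2 fold change -1.60, SE 0.43, adjusted p = 0.0334). Mcam (13.4 and 64 against 0.825, 0.729 and 0.925 CPM), Nt5e (30.5 and 73.8 against 4.99, 6.3 and 5.74 CPM) and Bmp4 (94.4 and 133 against 7.07, 12.6 and 19.7 CPM) were higher in MSC. Of the niche factors, Cxcl12, which retains hematopoietic stem cells, had 1453 and 4601 CPM against 1059, 741 and 573 CPM (log2 fold change 1.86, SE 0.51, adjusted p = 0.034), and Kitl (stem cell factor) 156 and 322 CPM against 172, 200.4 and 169.9 CPM (log2 fold change 0.32, SE 0.29, adjusted p = 0.414). The call of Pdgfra was lost without MSC 1 (log2 fold change -1.13), P1 (log2 fold change -1.38, adjusted p = 0.075) or P2 (log2 fold change -1.61, adjusted p = 0.0923). That of Cxcl12 was lost without MSC 2 (log2 fold change 0.84), P1 (log2 fold change 2.10, adjusted p = 0.0548), P2 (log2 fold change 1.82, adjusted p = 0.117) or P3 (log2 fold change 1.67, adjusted p = 0.094).

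Genes shared by fibroblasts of many tissues were higher in passaged cells in 8 of 21 tested genes and in MSC in 4 (median 0.05). Over all tested genes the shares were 6.99% and 7.7%. The passaged count was 5 without MSC 1 and 5 without P2. Gsn (gelsolin, which severs actin filaments) was among the genes with the highest means in passaged cells and above Fn1 at P1 and P2, with 23266, 24974 and 18646 CPM, against 1579.6 and 1247 CPM in MSC (log2 fold change -4.05, SE 0.39, adjusted p = 0.00195). Ly6a (Sca-1) had 946, 949.7 and 1086 CPM against 147 and 137 CPM (log2 fold change -2.87, SE 0.16, adjusted p = 0.000641), and its neighbour Ly6c1 439, 447 and 484 CPM against 23.5 and 22.1 CPM (log2 fold change -4.39, SE 0.14, adjusted p = 0.000242). Dpt (dermatopontin) had 267, 289 and 232 CPM against 30.1 and 11.9 CPM (log2 fold change -3.70, SE 0.46, adjusted p = 0.00356), and Dpp4 (CD26) 16.2, 9.51 and 5.03 CPM against 0.449 and 0.304 CPM (log2 fold change -4.81, SE 0.64, adjusted p = 0.00439). None of the 3 passaged libraries overlapped MSC for these genes, which were picked among the called ones, so this adds no weight. Lum (lumican) and Sfrp2 of the same list were higher in MSC, with log2 fold changes of 3.69 and 2.61.

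Wnt pathway genes gave a broad difference. In this pathway secreted Wnt ligands bind Frizzled receptors, R-spondins amplify the signal through Lgr receptors, and Dkk, Sfrp and Wif1 proteins inhibit it. Of 33 genes tested, 17 were higher in MSC and 2 in passaged cells (median 1.70; 12 to 17 with 1 library left out in MSC). Lgr5 had 238 and 40.8 CPM in MSC and 0.108, 0.133 and 0.148 CPM in passaged cells (log2 fold change 9.98, SE 1.09, adjusted p = 0.00265). Rspo3 had 152 and 72.3 CPM against 8.64, 12.9 and 16.7 CPM (log2 fold change 3.08, SE 0.42, adjusted p = 0.0046), and Rspo2 166 and 125 CPM against 36.4, 20.5 and 9.85 CPM (log2 fold change 2.65, SE 0.50, adjusted p = 0.0117). Amplifiers and their receptor were thus higher in MSC. Among receptors, Fzd8 had 197 and 144 CPM against 12.7, 11.4 and 11.5 CPM (log2 fold change 3.78, SE 0.17, adjusted p = 0.00043). Inhibitors went both ways, with Wif1 at 26.5 and 39.7 CPM against 0.0717, 0.0994 and 0.111 CPM (log2 fold change 8.32, SE 0.28, adjusted p = 0.00033) and Dkk2 at 3.82 and 6.18 CPM against 111, 123 and 100.3 CPM (log2 fold change -4.56, SE 0.24, adjusted p = 0.00062). The transcription factors Tcf7 (log2 fold change 3.33) and Lef1 (log2 fold change 2.88) were higher in MSC, at 4.69 and 4.08 CPM (Tcf7) and 1.88 and 5.51 CPM (Lef1). Wnt11, the 1 ligand higher in passaged cells, had 17.4, 11.2 and 5.85 CPM against 1.04 and 2.89 CPM (log2 fold change -2.62, adjusted p = 0.023). The 2 of 33 genes higher in passaged cells were near the 6.99% of all tested genes. The passaged count, of Dkk2 and Wnt11, was 1 without MSC 1, 1 without P1 and 1 without P2. Leave-one-out fits ended the call of Rspo2 without P2 (log2 fold change 2.60, adjusted p = 0.0549), and of Lef1 without P2 (log2 fold change 2.64, adjusted p = 0.0576). Sfrp1 had 353 and 3816 CPM in MSC, on either side of its 633, 1162 and 1163 CPM in passaged cells, and was not called (log2 fold change 0.98, SE 0.89, adjusted p = 0.412).

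BMP and TGF-beta genes had 12 of 36 tested higher in MSC and 1 higher in passaged cells (median 1.07; 8 to 14 with 1 library left out in MSC, and 3 without MSC 2 in passaged cells). The ligand Bmp4 had a log2 fold change of 3.04, and Bmp3 had 10.8 and 5.05 CPM against 0.717, 0.563 and 0.37 CPM (log2 fold change 3.78, SE 0.45, adjusted p = 0.00326). The receptor Bmpr1b had 14.2 and 13.7 CPM against 1.11, 1.16 and 0.851 CPM (log2 fold change 3.66, SE 0.19, adjusted p = 0.000589). The ligand Bmp8a, of the osteolineage list, was higher in passaged cells, at 6.28, 10.3 and 14.4 CPM against 2.25 and 4.63 CPM (log2 fold change -1.67, SE 0.47, adjusted p = 0.0378). Ligands thus lay on both sides. Tgfbr3 (betaglycan, a co-receptor) was the gene higher in passaged cells, 907, 832 and 728 CPM against 271 and 281 CPM (log2 fold change -1.64, SE 0.14, adjusted p = 0.00158). Bmpr1a (log2 fold change 1.07), Bmpr2 (log2 fold change 0.32) and Tgfbr2 (log2 fold change 1.08) were not called.

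Insulin-like growth factor and imprinted genes split by gene. Of 22 tested, 5 were higher in MSC, against 7.7% of all tested genes, and 6 in passaged cells, against 6.99% (list median -0.42). The ligands Igf1 (217 and 135 against 59, 41.8 and 30.6 CPM) and Igf2 (113 and 93.4 against 25.4, 18.8 and 13.8 CPM) were higher in MSC (log2 fold change 1.95 and 2.35, adjusted p = 0.00797 and 0.00253). Of the binding proteins, Igfbp2 had 75 and 113 CPM against 0.287, 0.829 and 0.888 CPM (log2 fold change 7.05, SE 0.40, adjusted p = 0.000649) and Igfbp3 51 and 97.7 CPM against 3454, 2513 and 1568 CPM (log2 fold change -5.15, SE 0.52, adjusted p = 0.00222). The binding proteins thus lay on opposite sides, and Igfbp3 was lower at each later passage, as it was in the other batch at 3438, 2004 and 956 CPM. The paternally expressed Mest had 255 and 95.4 CPM against 0.968, 0.298 and 0.814 CPM (log2 fold change 7.94, SE 0.63, adjusted p = 0.00132). Dlk1, also paternally expressed and an inhibitor of fat-cell formation, had 308, 295 and 229 CPM against 0.954 and 2.04 CPM (log2 fold change -7.61, SE 0.38, adjusted p = 0.000552). Cdkn1c, a maternally expressed cell cycle inhibitor, had 313, 296 and 234 CPM against 12 and 3.44 CPM (log2 fold change -5.24, SE 0.62, adjusted p = 0.00322). H19, a maternally expressed long noncoding RNA, had 795, 546 and 226 CPM against 91.9 and 81.9 CPM (log2 fold change -2.65, SE 0.55, adjusted p = 0.0148). Not called any more were H19 without MSC 1 (log2 fold change -2.77, adjusted p = 0.0544), MSC 2 (log2 fold change -2.54, adjusted p = 0.0659) and P2 (log2 fold change -2.61, adjusted p = 0.0518).

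In the FGF, PDGF and VEGF list, 9 of 22 tested genes were higher in MSC and 2 in passaged cells (median 1.26, and 0.65 without MSC 2). The counts were 5 without P1 and 5 without P2, and in passaged cells 0 without MSC 1, 4 without MSC 2, 0 without P1 and 1 without P2. Fgf7 (keratinocyte growth factor) had 336 and 349 CPM against 52.6, 41.5 and 34.3 CPM (log2 fold change 2.93, SE 0.18, adjusted p = 0.000778). The receptors Fgfr2 (257 and 96.2 against 22.1, 23.6 and 27.2 CPM; log2 fold change 2.80) and Fgfr3 (13.1 and 10.2 against 0.466, 0.729 and 1.33 CPM; log2 fold change 3.72) were higher in MSC, while Fgfr1 was not called (log2 fold change -0.06, adjusted p = 0.663). Pgf and Pdgfb were higher in MSC 2 than in MSC 1, like the endothelial genes above. MSC 1 and MSC 2 had 4.38 and 37.9 CPM of Pgf and 0.758 and 10.8 CPM of Pdgfb. Both genes were called higher in MSC. Their calls were lost without P1, P2 or P3 (adjusted p = 0.0572 to 0.0711 for Pgf and 0.0691 to 0.0852 for Pdgfb). Without MSC 2 the log2 fold change of Pdgfb was 3.56.

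Chemokine and cytokine genes were higher in MSC in 10 of 23 tested and in passaged cells in 2 (median 1.37; 6 without P2 in MSC and 1 without P2 in passaged cells). Cxcl14 had 122 and 142 CPM against 0.968, 0.729 and 1.07 CPM (log2 fold change 7.09, SE 0.16, adjusted p = 0.000216). Tnfrsf11b (osteoprotegerin, which restrains osteoclasts) had 440.3 and 453 CPM against 6.92, 9.41 and 14.7 CPM (log2 fold change 5.36, SE 0.34, adjusted p = 0.000843). Cxcl5 (log2 fold change 4.97), Lif (log2 fold change 4.07) and Cxcl1 (log2 fold change 3.70) were higher in MSC, at 12.4 and 30.8 CPM, 18.7 and 22.8 CPM and 10.4 and 14 CPM. Cxcl13, which draws B cells, had 0.112 and 0 CPM in MSC and 154, 106 and 98.6 CPM in passaged cells (log2 fold change -10.96, SE 0.55, adjusted p = 0.000552). It was at 211, 183 and 192 CPM in P1 to P3 of the other batch. Csf1, the macrophage growth factor, was on both sides at 637 and 1290.1 CPM in MSC and 891, 1158 and 1441 CPM in passaged cells (log2 fold change -0.35, SE 0.36, adjusted p = 0.461).

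Genes regulated by glucocorticoids differed in one direction. Glucocorticoids act through a nuclear receptor that switches on genes such as Fkbp5, Tsc22d3 and Zbtb16. Of 17 genes tested, 13 were higher in passaged cells and none in MSC by edgeR or DESeq2, and the count stayed at 13 with each library left out (median -3.38). Hif3a had 107, 107 and 83.6 CPM in passaged cells and 0.112 and 0.122 CPM in MSC (log2 fold change -9.75, SE 0.25, adjusted p = 0.000216). Zbtb16 (PLZF) had 190.3, 181 and 164 CPM against 1.88 and 1.34 CPM (log2 fold change -6.85, SE 0.21, adjusted p = 0.000242), and Fkbp5, a co-chaperone of the receptor, 464, 502 and 559.9 CPM against 7.47 and 24.6 CPM (log2 fold change -5.07, SE 0.57, adjusted p = 0.0029). Tsc22d3 (GILZ) had 682, 736 and 652 CPM against 54.6 and 26.8 CPM (log2 fold change -4.15, SE 0.38, adjusted p = 0.00176). Each was more than 10-fold apart between the nearest libraries of the sides. These genes were picked among the called ones, so this adds no weight. The list was chosen with earlier results of these data known, so its direction is not independent evidence. The metallothionein Mt2 (409, 362 and 413 against 10.4 and 17.9 CPM; log2 fold change -4.88) and glutamine synthetase Glul (1386, 1651 and 1377 against 69 and 71.4 CPM; log2 fold change -4.46) were among the rest. Per1 (log2 fold change -1.32), Sgk1 (log2 fold change -0.90) and Cebpd (log2 fold change -0.63) were lower in MSC with adjusted p of 0.00141, 0.00276 and 0.00971 but within the fold limit, and Dusp1 was not (log2 fold change 0.38, SE 0.13, adjusted p = 0.0568).

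The libraries outside the comparison gave these genes the following levels. Hif3a was at 111, 98.6 and 69.4 CPM in P1 to P3 of the other batch, 42.4 and 111 CPM in P0 Emcn- cells, 52 and 84.7 CPM in lung cells, and 6.53 and 16.4 CPM in P0 Emcn+ cells. Fkbp5 was at 418, 448 and 492 CPM, 402 and 434 CPM, 414 and 448 CPM, and 261 and 274 CPM in the same order. Both genes were thus lower in the MSC libraries than in any other library of the series. EGM-2 with hydrocortisone was the medium of the passaged cells and Mesencult that of MSC, so medium and cell type cannot be told apart here. The glucocorticoid response element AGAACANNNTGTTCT, sought on both strands, was in the promoter window of 1 of 16 list genes with a RefSeq sequence (Sgk1, at 1 of its starts) and of 3 of 27025 genes, 0.0111%.

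Interferon-stimulated and MHC class I genes were higher in passaged cells in 12 of 27 tested and in MSC in none by edgeR or DESeq2 (median -1.32; 10 to 11 with 1 library left out). The antiviral Oas2 had 7.78, 12.3 and 17.3 CPM in passaged cells and 0.393 and 0.304 CPM in MSC (log2 fold change -5.21, SE 0.49, adjusted p = 0.00184). Oas1a had 8.82, 9.61 and 14.4 CPM against 0.617 and 1.74 CPM (log2 fold change -3.30, SE 0.50, adjusted p = 0.00607), and Oasl2 53.5, 57.4 and 65.1 CPM against 10.9 and 13.2 CPM (log2 fold change -2.35, SE 0.14, adjusted p = 0.000752). Irf7, the factor that amplifies the response, had 19.8, 25.5 and 25.5 CPM against 6.57 and 5.91 CPM (log2 fold change -1.99, SE 0.18, adjusted p = 0.00172), and Ifit1 69.2, 76.7 and 109 CPM against 25.3 and 16.2 CPM (log2 fold change -2.09, SE 0.30, adjusted p = 0.00546). For these 5 genes the sides did not overlap, but they were picked among the called genes, so this adds no weight. B2m (log2 fold change -0.43, SE 0.12, adjusted p = 0.0384) was not called. Beside the list, the related Ifi209 had 52.3, 139.7 and 202 CPM against 0.225 and 0.335 CPM (log2 fold change -8.94, SE 0.92, adjusted p = 0.0023).

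The interferon-stimulated response element was sought as GAAANNGAAA on both strands of the same RefSeq promoter windows, because the factors that carry the interferon signal to the nucleus bind it. It was in 9 of 22 list genes with a sequence and in 1079 of all 27025 genes, 3.99%. Of the 8 called genes with a sequence it was in 4, shown with the matches in capitals and 30 flanking bases.
Ifit1, chr19:34640755-34640843, + strand: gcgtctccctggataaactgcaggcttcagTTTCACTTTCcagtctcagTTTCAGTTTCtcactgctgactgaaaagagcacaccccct
Ifit3, chr19:34583343-34583446, + strand: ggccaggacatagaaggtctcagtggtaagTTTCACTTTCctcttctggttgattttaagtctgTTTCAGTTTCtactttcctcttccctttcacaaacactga
Oas1a, chr5:120907500-120907575, - strand: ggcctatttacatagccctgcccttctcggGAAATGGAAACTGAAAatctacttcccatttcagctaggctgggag
Rsad2, chr12:26456533-26456602, - strand: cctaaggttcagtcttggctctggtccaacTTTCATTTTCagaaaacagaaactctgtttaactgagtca
Ifit1 and Ifit3 hold the element in its reverse orientation at 2 places each. In Oas1a 2 matches overlap, and Rsad2 has 1. No occupancy was measured, and the 5 uncalled genes Isg15, Stat2, Bst2, Gbp2 and B2m hold the letters too. The call of Ifit3 was lost without MSC 2 (log2 fold change -1.38) or P3 (log2 fold change -1.38, adjusted p = 0.0234). That of Rsad2 was lost without MSC 1 (log2 fold change -1.37) or P2 (log2 fold change -1.79, adjusted p = 0.0527).

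**Figure D4:**
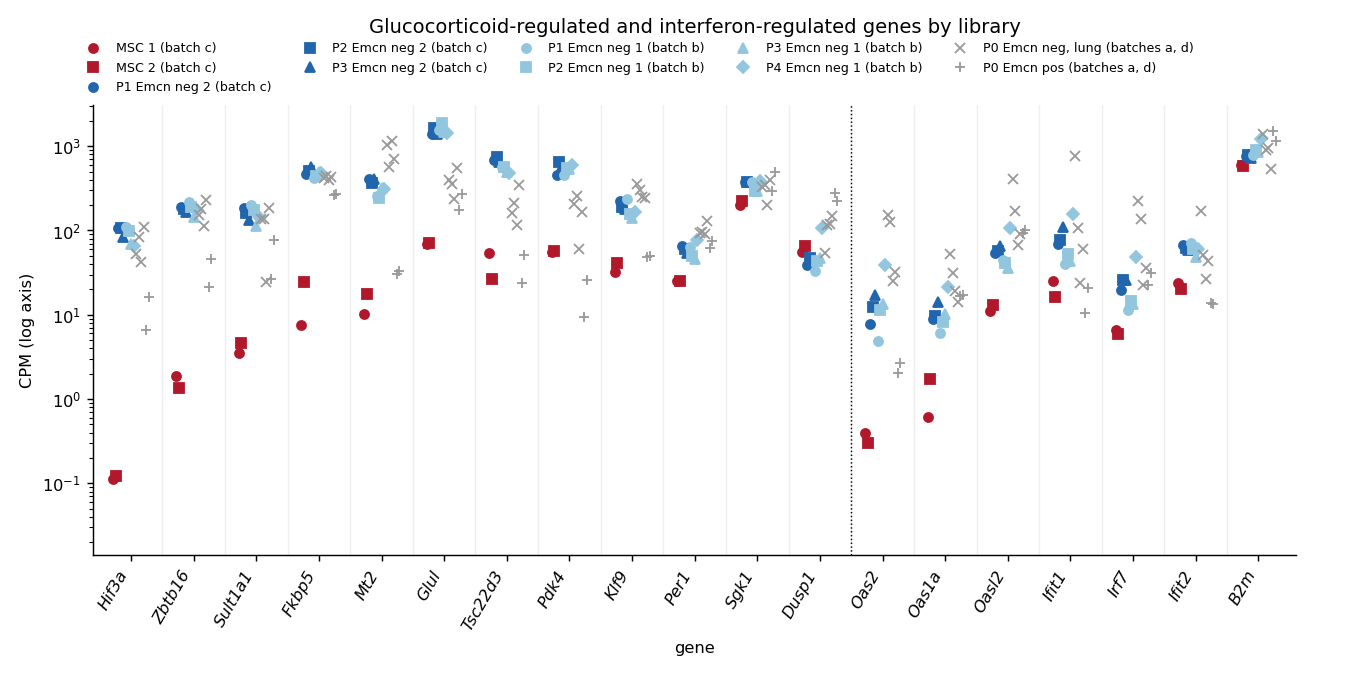
CPM per library (log axis) of 12 glucocorticoid-regulated genes (left of the dotted line) and 7 interferon-regulated genes (right), with MSC in red, passaged cells of batches c and b in dark and light blue, and P0 and lung libraries in grey. For Hif3a, Zbtb16, Sult1a1 and Fkbp5 both MSC libraries lie below every other library; Dusp1 and B2m show no such gap.

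The renin-angiotensin list had 4 of 12 tested genes higher in passaged cells and 1 higher in MSC (median -0.96; 4 to 6 with 1 library left out in passaged cells). In this system angiotensinogen is cut by renin and then by Ace to the peptide that acts on Agtr1a. Beside Ace, the precursor Agt had 113, 62.9 and 54.7 CPM against 2.22 and 7.31 CPM (log2 fold change -4.09, SE 0.62, adjusted p = 0.00604), and the receptor Agtr1a 41.5, 29.4 and 15.5 CPM against 2.72 and 3.01 CPM (log2 fold change -3.39, SE 0.46, adjusted p = 0.00453). The aminopeptidase Anpep had 236, 239 and 252 CPM against 78.7 and 71.1 CPM (log2 fold change -1.76, SE 0.11, adjusted p = 0.000843). A precursor, the converting enzyme and a receptor were thus higher in the same libraries. Mme (neprilysin), which degrades angiotensin peptides, was the gene higher in MSC, 845 and 459 CPM against 268, 191 and 151 CPM (log2 fold change 1.62, SE 0.34, adjusted p = 0.0159), and that count was 0 without MSC 1, 0 without P2 and 0 without P3.

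Of the arterial genes that the study took from published work, 5 of 16 tested were higher in passaged cells and 2 in MSC (median 0.14). The 5 were Ace, Timp4, Ly6a, Fbln2 and Sparcl1, the last at 1469, 1135 and 806 CPM against 7.83 and 43.3 CPM (log2 fold change -5.56, SE 0.87, adjusted p = 0.00675). Fbln2 had 1454, 2124 and 2526 CPM against 432 and 1022 CPM (log2 fold change -1.57, SE 0.45, adjusted p = 0.0383). The arterial transcription factor Sox17 and the Notch ligand Dll4 were too low to test, and Sox18 was at 0.108, 0 and 0.037 CPM in the passaged libraries. The MSC count was 6 without MSC 1, 1 without MSC 2, 1 without P2 and 1 without P3. Of 15 sinusoidal genes tested, 4 were higher in MSC and 1 in passaged cells, with 2 without MSC 2 and 2 without P2 in MSC and 2 without P1 and 2 without P3 in passaged cells. Nrp2, a neuropilin, had 766 and 462 CPM against 145, 142 and 112 CPM (log2 fold change 2.15, SE 0.26, adjusted p = 0.00326). The 1 of 15 sinusoidal genes higher in passaged cells was near the 6.99% of all tested genes. The 4 of 15 higher in MSC stand against 7.7%. With 1 library left out, calls were lost for Fbln2 without MSC 1 (log2 fold change -1.10, adjusted p = 0.0919), P2 (log2 fold change -1.53, adjusted p = 0.109) and P3 (log2 fold change -1.39, adjusted p = 0.0888).

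Cycling genes seldom passed the test between the sides, while their summed level differed among the passages. Of 34 tested, 1, Ccne2, was called higher in MSC and none in passaged cells by edgeR or DESeq2 (median 0.13); with 1 library left out the counts were 2 without MSC 1 and 2 without P3 in MSC and 1 without MSC 1 in passaged cells. Mki67 had 41.2 and 49.6 CPM in MSC and 12.5, 32.7 and 48 CPM at P1, P2 and P3 (log2 fold change 0.47, SE 0.52, adjusted p = 0.505). The 34 genes summed to 1285 CPM at P1, 2055 CPM at P2 and 3390.4 CPM at P3, and to 3861 and 3385 CPM in MSC, so P1 was the library farthest from MSC. Of the cyclin-dependent kinase inhibitors, Cdkn1c has been given above, and Cdkn2b (p15) was also higher in passaged cells, at 94.1, 98 and 112 CPM against 43.1 and 31.7 CPM (log2 fold change -1.51, SE 0.18, adjusted p = 0.00336). Cdkn2a, at 63.3, 83 and 119.6 CPM against 59.6 and 42.7 CPM, was not called (log2 fold change -0.86, SE 0.32, adjusted p = 0.0781). The list of inhibitors and senescence genes had 3 of 15 tested higher in passaged cells and 2 in MSC, the latter including Il6. The call of Cdkn2b was lost without MSC 2 (log2 fold change -1.28) or P3 (log2 fold change -1.43, adjusted p = 0.0123).

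Position genes differed in part. Of 34 Hox genes tested, 7 were higher in MSC and 3 in passaged cells (median 0.08), and the MSC count was 4 without MSC 1, 4 without P1, 3 without P2 and 4 without P3, and the passaged count 6 without MSC 2. The called genes in MSC were Hoxa13 and 6 of the Hoxd cluster. Among these, Hoxd10 had 19.1 and 2.59 CPM against 0.359, 0.166 and 0.333 CPM (log2 fold change 5.19, SE 0.95, adjusted p = 0.0103). Several were low too. Hoxd10 was below the minimum in MSC 2, and Hoxd11 and Hoxd13 had 210 and 48 counts over the MSC libraries. With the stricter filter 4 Hox genes were called higher in MSC. Hoxa10, Hoxc6 and Hoxc10 were on both sides and not called (log2 fold change 0.95, -0.39 and -0.08). In passaged cells the called genes were Hoxb5, Hoxb6 and Hoxb7, none of which reached the minimum, and Hoxb7 was at 3.26, 4.34 and 4.48 CPM in batch c but 0.149, 0.408 and 0.536 CPM in P1 to P3 of the other batch, against 0.196 and 0.791 CPM in MSC. Of 23 other limb and position factors, 6 were higher in MSC and 2 in passaged cells, with 3 without MSC 1 and 3 without P2 in MSC and 6 without MSC 1 in passaged cells. Foxd1 had 12.9 and 11.9 CPM against 0.143, 0.199 and 0.074 CPM (log2 fold change 6.36, SE 0.33, adjusted p = 0.00056), Irx3 had 22.4 and 14.5 CPM against 1.69, 1.69 and 1.37 CPM (log2 fold change 3.48, SE 0.25, adjusted p = 0.00108), and the hindlimb factor Tbx4 23.5, 33.7 and 38.4 CPM in passaged cells against 10.6 and 7.03 CPM (log2 fold change -1.92, SE 0.31, adjusted p = 0.00711). Prrx1, the pan-mesenchymal limb factor, was at 458 and 739 CPM in MSC and 466, 494 and 498 CPM in passaged cells and not called. The counts of 3 Hox genes and 2 limb and position factors higher in passaged cells were near the 6.99% of all tested genes. The 7 of 34 and 6 of 23 higher in MSC stand against 7.7%.

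Among the remaining lists, 12 Notch genes were tested, and 3 of them, Dll1, Hes1 and Hey2, were higher in MSC and none in passaged cells. The Notch count was 10 without MSC 1 and 1 without MSC 2, and 4 by DESeq2. Of 13 epithelial-mesenchymal transition factors tested, Tgfbi and Twist2 were higher in passaged cells (log2 fold change -2.51 and -1.82) and none in MSC by edgeR or DESeq2, with 1 without MSC 1 and 1 without P2 in passaged cells and 1 without P1 in MSC. Vim had 3812 and 3679 CPM in MSC and 4208, 5197 and 5701 CPM in passaged cells and was not called (log2 fold change -0.50, SE 0.24, adjusted p = 0.153). Glycolysis had 2 of 20 genes higher in MSC, Slc16a3 (19 and 18.3 against 0.502, 0.464 and 0.518 CPM, log2 fold change 5.16) and Pfkl (log2 fold change 1.55). In passaged cells 1 was higher, the neuronal-type glucose transporter gene Slc2a3 (log2 fold change -2.82). These counts were near the shares of all tested genes, 7.7% and 6.99%, and the MSC count was 5 without P3. The list median was 0.81. Without the fold limit 12 glycolysis genes were higher in MSC and 2 in passaged cells, against 3382 and 3417 of all 16581 tested. The list summed to 4195 and 4250 CPM in MSC and to 2307, 2346 and 2771 CPM at P1, P2 and P3. Cholesterol synthesis had 1 of 24 higher in passaged cells and none in MSC by edgeR or DESeq2, and the MSC count was 3 without P3. Its list median was 0.56, and without the fold limit 11 genes were higher in MSC and 1 in passaged cells.

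**Figure D5:**
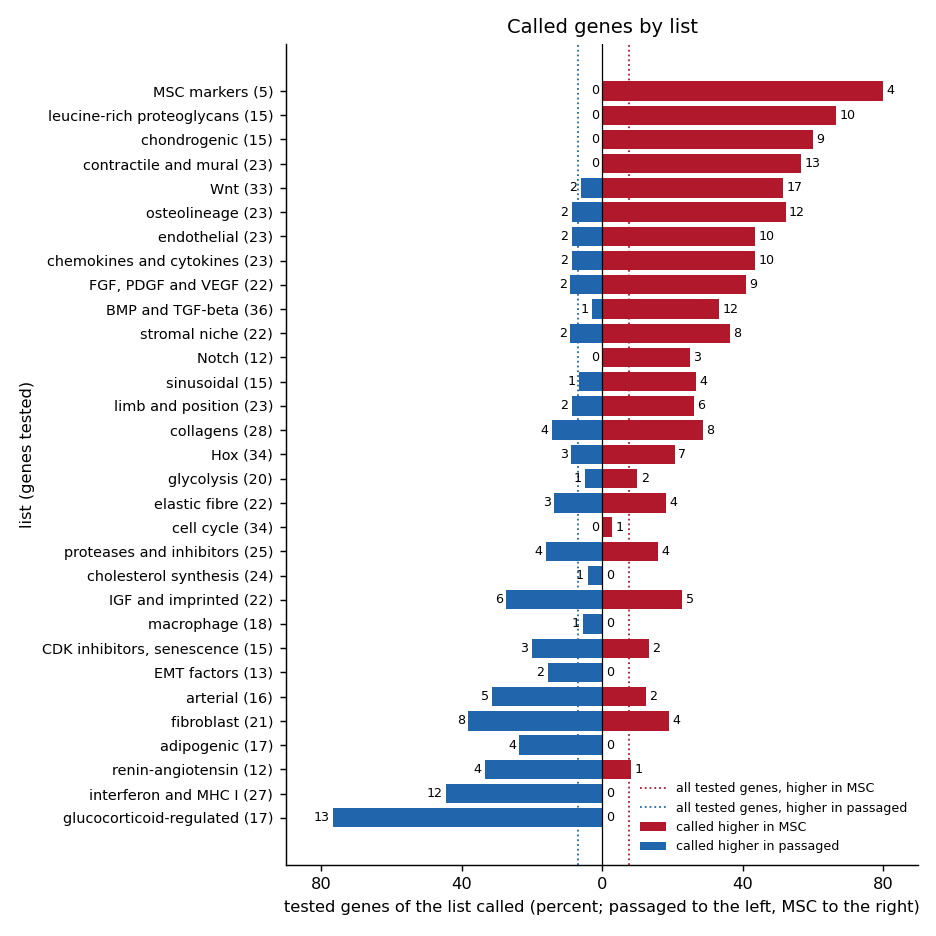
Percent of the tested genes of each list called higher in MSC (red, right) or in passaged cells (blue, left), with the number of genes at each bar and the number tested after the list's name. Dotted lines mark the 7.7% and 6.99% of all tested genes called in each direction; the proteoglycan, cartilage and contractile lists extend farthest to the MSC side after the 5 MSC markers, and the glucocorticoid-regulated list farthest to the passaged side.

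By size alone, among called genes with no overlap and at least 20 CPM in both MSC libraries, the 10 farthest toward MSC were Ncoa4-ps, Scg2, Lgr5, Col2a1, Fmod, Cnn1, Wif1, Mest, Mmp13 and Hapln1. Scg2 (secretogranin II, a precursor of secreted peptides) had 253 and 915 CPM against 0.574, 0.298 and 0.444 CPM (log2 fold change 10.29, SE 0.73, adjusted p = 0.00105). Ncoa4-ps, a pseudogene listed with 3385 counts in MSC and 0 in the 3 passaged libraries, at least 1402-fold with 3 counts over the group as the limit, is uncertain because its reads can be shared with the near-identical parent gene. The 10 toward passaged cells included Rpl10-ps1, Cxcl13, Cbln2, Hif3a, Ifi209, Slco2b1, Ace, Abca6 and Lvrn. Cbln2 (cerebellin 2, a synaptic organizer) had 124, 116 and 103 CPM against 0.0561 and 0.183 CPM (log2 fold change -9.95, SE 0.29, adjusted p = 0.000242). The transporter gene Abca6 had 182, 186 and 131 CPM against 0.309 and 0.7 CPM (log2 fold change -8.44, SE 0.38, adjusted p = 0.00043). Slco2b1, an organic anion transporter, was at 29.9, 38.5 and 20.8 CPM in P1 to P3 of the other batch and at 28.7, 38.7 and 28 CPM in batch c, against 0.0842 and 0.0609 CPM in MSC. Rpl10-ps1, 0 counts in MSC and 5923 in passaged cells, carries the same doubt as the other pseudogene.

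The genes with the most counts differed in part between the sides. The 10 genes with the most counts in MSC included Thbs1, Fn1, Lox, Col12a1, Bgn, Timp3 and Col3a1. In passaged cells the highest mean was that of ENSMUSG00000098178, a row without a symbol (chromosome 17, 39846958 to 39848788). It had 32026, 44826 and 27986 CPM against 12190.3 and 11099 CPM (log2 fold change -1.66, SE 0.42, adjusted p = 0.0275). The row was also among the 10 highest in MSC. What its reads stand for was not tested, so it is not read as a difference in a known gene. The others in passaged cells included Fn1, Gsn, Fth1 (ferritin heavy chain, 7622, 9828 and 10795 CPM against 2205 and 3188 CPM; log2 fold change -1.88, SE 0.32, adjusted p = 0.00858), Eef1a1 and 4 mitochondrial genes. Genes of the mitochondrial genome took 3.36% and 4.13% of the counts in MSC and 5.99%, 5.44% and 5.16% at P1, P2 and P3. Timp3, a matrix-bound inhibitor of metalloproteinases, spanned 798, 2146 and 3792 CPM over the passages and 3266 and 6042 CPM in MSC, and was not called (log2 fold change 0.97, SE 0.66, adjusted p = 0.281). Leave-one-out fits ended the call of Fth1 without P2 (log2 fold change -1.84, adjusted p = 0.0501), and of ENSMUSG00000098178 without MSC 1 (log2 fold change -1.76, adjusted p = 0.0519), MSC 2 (log2 fold change -1.56, adjusted p = 0.0679) and P2 (log2 fold change -1.42, adjusted p = 0.143).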

How the data were processed

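Bulk RNA-seq of 15 libraries was deposited by the authors as 1 table of whole-number counts for 44674 genes. By the methods of the study and the submitters' processing notes, reads were aligned with STAR to GRCm38 and quantified with Salmon on Ensembl release 81 genes, with gene totals from tximport. The rounding of these estimates is not described. The deposited counts are not normalized. The authors' sort, medium and mouse line differed between the sides.

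From the counts, CPM was computed on library totals. The 5 libraries of batch c were tested with edgeR 4.0.16 (TMM factors, filterByExpr with at least 10 counts and a total of 15, quasi-likelihood test), with p-values adjusted by Benjamini-Hochberg over all 16581 genes tested, in R 4.3.3. A call needed an adjusted p below 0.05 together with a log2 fold change beyond 1.5 either way. SE is the log2 fold change over the square root of the test's F. Residual degrees of freedom were 3. Each library was counted as 1 sample. Counts differed between all pairs within a side beyond sampling noise (chi-square per degree of freedom 30.32 to 117.1). Serial passages of 1 culture would differ in this way too, so the check does not show that P1, P2 and P3 are independent. The procedure was also run on simulated counts. These had independent libraries and the same spread for every gene, so that run says nothing of the calls made here. Coordinates come from GENCODE M21 (GRCm38), which held 44118 of the gene identifiers, and 8 rows carried no symbol.

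The members and the 32 gene lists were chosen with earlier results of these data known. Of each list, the text names up to 6 called genes with the largest fold change, up to 3 uncalled genes with the most CPM and members that define the list, beside the 10 largest changes each way; further list members named were chosen after their values were seen. Alternatives were DESeq2 1.42.0, its size factors, no filter, a stricter filter, no fold limit, all 15 libraries, a batch term and each library left out. The other 10 libraries gave levels only. A few genes are not reported here.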

Additional observations from a re-analysis of the deposited data

Results flagged for a closer look

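Pseudogene rows gave a signal outside the libraries compared. In the passaged libraries of the other batch, P1 to P3, Ncoa4-ps had a mean of 48.7 CPM, although the 3 passaged libraries of batch c had 0 counts of it. Rpl14-ps1 had a mean of 63.6 CPM there. Rpl10-ps1 had a mean of 0.0 CPM there, although it was high in the passaged libraries of batch c. Within the passaged cells these pseudogenes thus differed between the batches, and the calls of Ncoa4-ps and Rpl10-ps1 between MSC and passaged cells hold for batch c. Copies of such genes are near-identical, so the assignment of their reads is uncertain, and its part in these values was not tested.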

How the results depend on the processing

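Of the summary counts, 2435 genes were called in all, 1276 higher in MSC, 1159 higher in passaged cells and 1133 among the described genes. Without the fold change limit these were 6799, 3382, 3417 and 5159, since fewer conditions had to be met. A stricter filter gave 847 genes higher in MSC, because fewer genes were tested. With 1 library left out the counts ranged from 1655 to 2341, 817 to 1315, 838 to 1167 and 954 to 1204, and the 817 came without P2; where 1 side keeps 1 MSC library, that library is assumed to vary like the other side. The other 45 summary values were within 1.5 times. The direction turned for uncalled genes alone, whose log2 fold changes with 1 library left out ranged as follows. They were Adipoq -0.45 (without P3) to 0.34 (without P1), Angpt2 -0.16 (without MSC 2) to 3.85 (without MSC 1), Cebpa -1.32 (without MSC 2) to 0.26 (without MSC 1), Csf1 -0.91 (without MSC 2) to 0.045 (without MSC 1), Dcn -0.17 (without MSC 1) to 0.98 (without MSC 2), Eln -1.23 (without MSC 2) to 2.53 (without MSC 1), Fbn1 -0.20 (without MSC 2) to 0.64 (without MSC 1), Kitl -0.25 (without MSC 2) to 0.73 (without MSC 1), Lyz2 -2.43 (without P3) to 0.076 (without P1), Mmp2 -1.06 (without MSC 1) to 0.15 (without MSC 2), Pdgfrb -0.0083 (without MSC 2) to 0.88 (without MSC 1), Prrx1 -0.13 (without MSC 2) to 0.50 (without MSC 1), Serpinf1 -0.0395 (without P1) to 0.11 (without MSC 1), Sfrp1 -1.53 (without MSC 2) to 1.85 (without MSC 1) and Spp1 -0.63 (without P1) to 0.20 (without P3). The cause was not tested. Of the other values of single genes, 116 fell short of a limit and 35 passed one that they had missed. DESeq2 gave no adjusted p for 2 genes. With 2 and 3 libraries a side and 3 residual degrees of freedom, smaller differences may go uncalled. No paired analysis was possible because the MSC libraries carry the numbers 1 and 2 while all passaged libraries of the batch carry the number 2.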
